A study of Homo sapiens with 24 samples.

Results

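Keratins are the intermediate filament proteins of epithelial cells, and 10 of them are described here across bladder cancer cell lines. Some of the 10 mark layers of the urothelium, the lining of the bladder. The genes are KRT5, KRT6A, KRT14, KRT17, KRT13, KRT7, KRT8, KRT18, KRT19 and KRT20, taken by name as 10 of the 35993 gene symbols in the count table. Transcripts were measured by RNA sequencing in 24 libraries of 2 established human bladder cancer lines, J82 and RT-112. Each line was present as parental cells, which the labels call controls, and as 3 derived lines: CD44 Low, labelled low for the receptor CD44, CD44 High, labelled high for it, and CD44v6, labelled high for the CD44 isoforms that carry the v6 variant exon. Each of these 8 groups had 3 biological replicates. The labels do not say how the derived lines were made, whether a line is 1 clone, or name any drug or other treatment.

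A keratin filament is built from pairs of a type I (acidic) and a type II (basic) keratin, so the members of both types are usually made together. In the human genome (GRCh38, GENCODE 29) the type II members KRT5, KRT6A, KRT7 and KRT8 lie on chromosome 12 with the type I gene KRT18, and the other type I members lie on chromosome 17. In normal urothelium KRT5 and KRT14 mark the basal layer, KRT17 marks basal and intermediate cells, KRT13 is made below the surface layer, KRT7, KRT8, KRT18 and KRT19 are the broadly expressed simple-epithelial keratins, and KRT20 is restricted to the umbrella cells at the surface. KRT6A is induced in wounded and squamous epithelium. Pathologists use these keratins to sort bladder tumours into basal and luminal types, and CD44 itself is a marker of basal urothelial cells.

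The 2 parental lines differed first in which of these genes they transcribed at all. KRT5, KRT6A, KRT13 and KRT20 had a count of 0 in each of the 12 J82 libraries, which allows a level of up to 0.178 CPM (counts per 1000000 after scaling) in any of them. In RT-112 parental cells KRT13, the keratin of the layers below the surface, stood at 4212, 4151 and 4027 CPM in replicates 1 to 3. Against the floor of 3 counts per library, KRT13 was at least 25137-fold lower in J82 parental cells. KRT5, the basal type II keratin, stood at 599, 596 and 494 CPM in RT-112 parental cells and was at least 3426-fold lower in J82. KRT6A stood at 115, 101 and 98.9 CPM in RT-112 and was at least 638-fold lower in J82. KRT20, the umbrella-cell keratin, was near the bottom of the RT-112 range at 6.12, 6.10 and 6.64 CPM, and at least 38.3-fold lower in J82. For these 4 keratins the lines therefore never overlapped. KRT14, the type I partner of KRT5, was low in both lines: it reached 4.22 to 7.11 CPM in RT-112 parental cells and 0 to 0.4 CPM in J82 parental cells, where 1 of the 3 libraries held all 9 counts.

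The other 5 keratins were transcribed in both lines. KRT17 was 71.9 ± 5.10 CPM in J82 and 1949.9 ± 175 CPM in RT-112 parental cells (mean ± SD, n = 3), a log2 difference of -4.76 ± 0.18 (adjusted p = 1.66e-15) for J82 against RT-112. Here and below, log2 differences are fitted values ± SE and levels ± SD. KRT19, a type I keratin without a fixed type II partner, was 379 ± 43.9 CPM in J82 and 2507 ± 59.7 CPM in RT-112, a log2 difference of -2.73 ± 0.12 (adjusted p = 1.3e-14). KRT7 was also lower in J82, by 1.14 on the log2 scale, whereas the simple-epithelial pair KRT8 and KRT18 was the only part of the set that was higher in J82. KRT8 was 4628 ± 389 CPM in J82 and 2435 ± 213 CPM in RT-112, a log2 difference of 0.93 ± 0.10 (adjusted p = 2.04e-08), and KRT18 differed by 0.42 ± 0.09 (adjusted p = 0.000264). All 10 keratins were called between the parental lines (2 higher and 8 lower in J82; edgeR quasi-likelihood F-test, Benjamini-Hochberg adjusted p under 0.05), where 62% of all 17438 genes tested were called (31% higher and 31% lower). KRT5, KRT6A, KRT13, KRT14 and KRT20 passed the filter on low counts through RT-112 alone, so both their calls and their lack of overlap in this comparison followed from the filter. The lines also did not overlap for any of the other 5, against 73.9% of all genes. In bulk RNA, fewer cells that make a transcript and less of it per cell cannot be told apart.

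KRT5 and KRT20 stand at the opposite ends of the basal-to-luminal order, were both at 0 in J82, and moved in opposite directions between the RT-112 lines described below, so the 250 bases before their transcription starts are shown from RefSeq (assembly GRCh38.p14, which is not the build of the counts). Each reads 5′ to 3′ in the direction of the gene, on the minus strand. Capitals mark matches, on either strand, to the TATA-box core ATAAAA and the GATA-factor core GATAA, and in each promoter 1 run of capitals holds both, overlapping. The RefSeq promoter table held 3 of the 10 keratins (KRT5, KRT8 and KRT20).
KRT5 chr12:52520395-52520644: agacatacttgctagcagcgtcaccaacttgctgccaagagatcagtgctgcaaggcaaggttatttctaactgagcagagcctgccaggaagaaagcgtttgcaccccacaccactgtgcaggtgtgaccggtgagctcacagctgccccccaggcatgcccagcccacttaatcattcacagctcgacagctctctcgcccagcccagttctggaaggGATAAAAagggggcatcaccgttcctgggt
KRT20 chr17:40885243-40885492: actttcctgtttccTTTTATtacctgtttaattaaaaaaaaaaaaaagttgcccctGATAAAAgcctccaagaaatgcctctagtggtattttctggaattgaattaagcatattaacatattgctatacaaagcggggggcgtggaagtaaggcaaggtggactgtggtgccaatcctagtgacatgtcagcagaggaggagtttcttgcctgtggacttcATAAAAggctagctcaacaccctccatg
KRT5 had ATAAAA from 29 to 24 bases before its start, and KRT20 had it from 28 to 23 bases before its start and again from 193 to 188. KRT20 also had the reverse complement from 236 to 231 bases before the start. GATAA lay from 30 to 26 bases before the KRT5 start, overlapping the TATA-box match, and from 194 to 190 bases before the KRT20 start. Among 35116 RefSeq promoter windows of 250 bases, 14.8% held ATAAAA and 20.4% held GATAA. Neither window held the AP-1 letters TGANTCA (in 6.57% of windows) or the AP-2 letters GCCNNNGGC (in 19.8%). These matches describe letters and not bound sites.

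Levels were next compared between genes, which needs a level per transcript length (CPM per kilobase of the principal GENCODE 29 transcript). In J82 parental cells KRT8 led at 2177 ± 183 CPM per kilobase. KRT7 (1136) and KRT18 (1109.6) followed with overlapping ranges, then KRT19 (273) and KRT17 (43.6), whose ranges were separate from their neighbours. In RT-112 parental cells KRT7 (2496) and KRT13 (2431) led with overlapping ranges, ahead of KRT19 (1803). KRT17 (1181) and KRT8 (1145) overlapped in the middle of the order, ahead of KRT18 (832) and KRT5 (222). KRT6A (45.4), KRT20 (3.62) and KRT14 (3.35) closed it, the last 2 with overlapping ranges. J82 keratin was thus mainly the KRT8, KRT18 and KRT7 set, while RT-112 also made much KRT13, KRT19 and KRT17, as the stacked shares by group show. The order was the same in both parental groups when each gene's longest transcript was used.

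**Figure D1:**
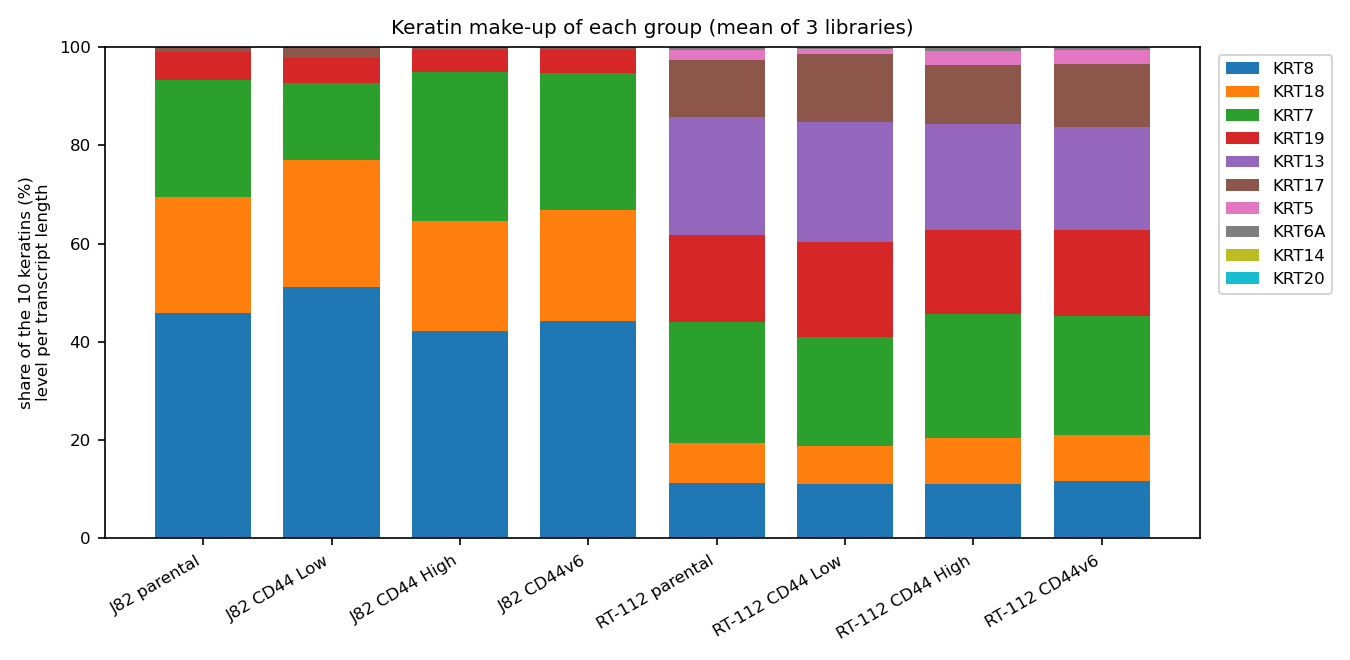
Stacked bars give the share of each keratin in the summed level per transcript length of the 10 keratins (percent, vertical axis) in each of the 8 groups (horizontal axis, mean of 3 libraries). KRT8 takes 45.9% ± 0.221 (SD, n = 3) in J82 parental and 11.3% ± 0.824 in RT-112 parental cells, and the KRT7 share in J82 is 15.5% ± 1.33 in the CD44 Low and 30.3% ± 1.77 in the CD44 High line.

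The libraries held 16752825 to 24419670 counts, and CD44 was lowest in the libraries labelled CD44 Low. In J82 it was 489, 396 and 448 CPM in parental, 309, 273 and 254 CPM in CD44 Low, 709, 764 and 707 CPM in CD44 High and 714, 1072 and 612 CPM in CD44v6 libraries. In RT-112 it was 310.0, 347 and 293 CPM in parental, 119.7, 151 and 152 CPM in CD44 Low, 417, 351 and 491 CPM in CD44 High and 516, 449 and 378 CPM in CD44v6 libraries. Against parental cells, J82 gave log2 fold changes in CD44 of -0.68 ± 0.17 (adjusted p = 0.0329) in CD44 Low, 0.71 ± 0.16 (adjusted p = 0.0355) in CD44 High and 0.85 ± 0.17 (adjusted p = 0.0214) in CD44v6. RT-112 gave -1.20 ± 0.15 (adjusted p = 0.00123) in CD44 Low, but 0.41 ± 0.15 (adjusted p = 0.272) in CD44 High and 0.46 ± 0.15 (adjusted p = 0.163) in CD44v6, so neither RT-112 line labelled high for CD44 was called above parental cells. Counts per gene do not separate the v6 isoforms. Of 10 epithelial markers, all were over 1 CPM in every RT-112 group (summed level 1439 to 1748 CPM), whereas in J82 the sum was 11.3 to 19.9 CPM and ESRP1, GRHL2 and RAB25 were at 0 in all libraries.

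In J82, KRT7 and KRT17 moved in opposite directions between the CD44 Low and CD44 High lines, while the groups of the abundant pair KRT8 and KRT18 overlapped. KRT7, a simple-epithelial type II keratin, stood at 890.0, 1273 and 977 CPM in the CD44 Low and 2912, 3207 and 2352 CPM in the CD44 High libraries. Every CD44 High library was above every CD44 Low library, and the change was 2.71-fold, a log2 fold change of 1.44 ± 0.15 (adjusted p = 3.5e-05). KRT17, the basal and stress-associated type I keratin, stood at 124, 137 and 143 CPM in the CD44 Low and 39.1, 48.5 and 60.4 CPM in the CD44 High libraries. It fell 2.73-fold without overlap, a log2 fold change of -1.45 ± 0.15 (adjusted p = 4.39e-05). Of the 10 keratins 5 passed the filter on low counts in J82, and these 2 were called, 1 in each direction, where 15.7% of all genes were called (8.83% higher and 6.9% lower). Luminal urothelial markers (3 of 10 over 1 CPM in both groups, with UPK1A, UPK1B, UPK2 and UPK3A at 0) summed to 58.9 to 64.1 CPM in CD44 Low and 81.3 to 94.3 CPM in CD44 High. The luminal sum was higher mainly through PPARG (means 20.9 CPM in CD44 Low and 47.1 CPM in CD44 High). FOXA1 (2.16 and 5.10 CPM) and GRHL3 (0 and 0.139 CPM) also had higher means. ERBB2 (37.6 and 34.3 CPM), GATA3 (0.615 and 0.087 CPM) and UPK3B (0.114 and 0.043 CPM) had lower means. Basal epithelial markers (5 of 9 over 1 CPM in both, CD44 among them, with DSG3 at 0) summed to 407 to 485 and 954 to 1031 CPM. That sum was higher mainly through CD44, the gene the lines are labelled by (means 279 and 727 CPM), and ITGA6 (92.1 and 196 CPM). COL17A1, LAMB3 and CDH3 also had higher means in CD44 High. ITGB4 (7.23 and 2.82 CPM), DSC3 (58.8 and 52.7 CPM) and TP63 (0.0922 and 0 CPM) had lower means. The part of these luminal and basal markers in the keratin differences was not tested.

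KRT8 was 3859, 4560.1 and 4079 CPM in the J82 CD44 Low and 4787, 5068 and 4379 CPM in the CD44 High libraries, ranges that overlapped (log2 fold change 0.19 ± 0.09, adjusted p = 0.154). KRT18, its type I partner, gave 0.25 ± 0.09 (adjusted p = 0.071) and also overlapped. Without CD44 Low replicate 2 or without CD44 High replicate 3, KRT18 passed the threshold (adjusted p = 0.0398 and 0.0356). KRT19 was 289.7, 308 and 238 CPM in the CD44 Low and 341, 343 and 319.8 CPM in the CD44 High libraries, which did not overlap. Its log2 fold change was 0.27 ± 0.11 (adjusted p = 0.112), and with the replicate number as a block it was 0.28 with an adjusted p of 0.0404. The labels do not say that replicate numbers pair libraries. Groups did not overlap for 3 of the 5 keratins, against 34.8% of all genes.

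**Figure D2:**
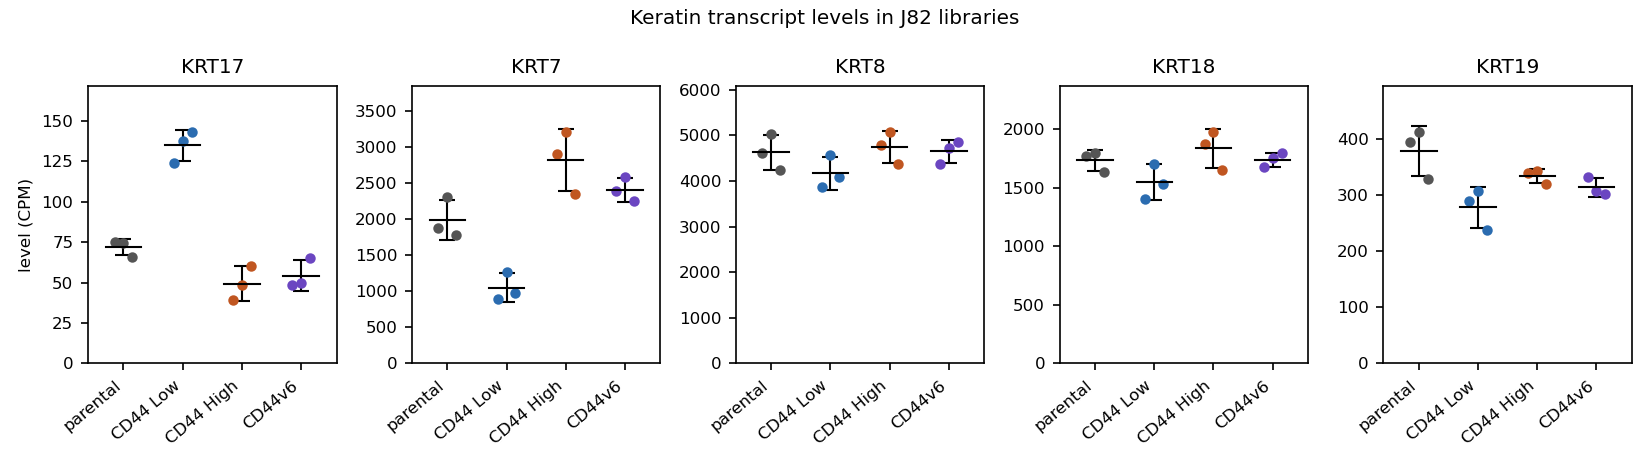
Points are single J82 libraries (level in CPM on a linear vertical axis from 0; 4 groups on the horizontal axis), with the mean as a bar and the SD as whiskers (n = 3). KRT17 is highest and KRT7 lowest in the CD44 Low libraries, and KRT8 and KRT18 overlap between all groups; the 5 keratins not drawn were at 0 or under 0.5 CPM.

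Set against J82 parental cells, KRT17, KRT7 and KRT19 differed in the CD44 Low line. KRT17 was 75.2, 74.6 and 66.1 CPM in parental cells and rose in CD44 Low by 0.90 ± 0.15 (adjusted p = 0.00412) on the log2 scale. KRT7 was 1882, 2309.5 and 1787 CPM in parental cells and changed in CD44 Low by -0.93 ± 0.15 (adjusted p = 0.00277). KRT19 was 395, 412 and 329 CPM in parental cells and changed by -0.45 ± 0.11 (adjusted p = 0.0322) in CD44 Low, where 3 of 5 keratins were called, 1 higher and 2 lower, against 5.34% of all genes (2.26% higher and 3.08% lower). The groups did not overlap for these 3, against 33.1% of all genes. The KRT19 call did not hold without parental replicate 1 (adjusted p = 0.128), parental replicate 2 (0.151), CD44 Low replicate 1 (0.0643) or CD44 Low replicate 3 (0.071), nor in a fit of only the groups compared (0.0502). KRT8 and KRT18 overlapped between parental and CD44 Low libraries, with log2 fold changes of -0.15 and -0.17.

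In the J82 CD44 High line no keratin was called against parental cells by edgeR (0 of 5, 2 at an unadjusted p under 0.05, against 2.94% of all genes called), while DESeq2 called 2. KRT17 gave -0.54 ± 0.15 (adjusted p = 0.0821) and KRT7 gave 0.51 ± 0.15 (adjusted p = 0.0908), both without overlap between the groups, against 29.6% of all genes. Without CD44 High replicate 3 the KRT17 adjusted p was 0.0317. CD44v6 against parental cells likewise gave 0 calls by edgeR and by DESeq2 (2 at an unadjusted p under 0.05, against 2.6% of all genes called), with KRT17 at -0.40 ± 0.15 (adjusted p = 0.176) and KRT7 at 0.27 ± 0.15 (adjusted p = 0.316). The groups did not overlap for KRT17 alone among the 5, against 27.3% of all genes. Without CD44v6 replicate 3 the KRT17 adjusted p was 0.0468.

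The J82 CD44v6 libraries overlapped the CD44 High libraries for all 5 keratins, while 12.1% of all genes did not overlap. KRT7 was 2392, 2587 and 2247 CPM and KRT17 48.3, 49.5 and 65.2 CPM in CD44v6. Against CD44 Low, KRT7 rose by 1.21 ± 0.15 (adjusted p = 0.000179) on the log2 scale and KRT17 changed by -1.31 ± 0.15 (adjusted p = 0.000135), the 2 calls among 5 keratins, where 9.58% of all genes were called (6.18% higher and 3.4% lower). The groups did not overlap for these 2, against 23.4% of all genes. This comparison and CD44 High against CD44 Low use the same CD44 Low libraries. Between CD44v6 and CD44 High no keratin and 0% of all genes were called by edgeR, 0 keratins and 1536 genes had an unadjusted p under 0.05, and DESeq2 called 0 keratins and 74 genes.

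In RT-112, 8 keratins differed between CD44 Low and CD44 High. The basal keratin KRT5 and the squamous and wound keratin KRT6A were higher in CD44 High, and KRT13, KRT17, KRT7, KRT8, KRT19 and the umbrella-cell keratin KRT20 were lower. KRT17, a keratin of basal and intermediate cells, was thus lower where KRT5 was higher. The calls were 2 higher and 6 lower among 10, where 16% of all genes were called (9.01% higher and 7.02% lower), and the median log2 fold change over the 10 was -0.41 against 0.02 over all genes tested. Groups did not overlap for 8 of the 10, against 30.4% of all genes. Of 10 luminal urothelial markers, 9 were over 1 CPM in the CD44 Low and 8 in the CD44 High libraries, with UPK3A at 0, and their summed level was higher in CD44 Low (1141 to 1207 CPM, against 724 to 910.1 CPM in CD44 High). UPK1B had the largest change in that sum (means 682 CPM in CD44 Low and 403 CPM in CD44 High), and only UPK2 (3.67 and 4.65 CPM) had a higher mean in CD44 High. All 9 basal markers, CD44 among them, were over 1 CPM in both and summed to 1243 to 1374 CPM in CD44 Low and 2237 to 2346 CPM in CD44 High. The basal sum was higher mainly through ITGA6 (440 and 879 CPM), CD44, the gene the lines are labelled by (141 and 420 CPM), and ITGB4 (203 and 373 CPM). Only COL17A1 (110 and 89.3 CPM) had a lower mean in CD44 High. The part of these markers in the keratin differences was not tested.

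KRT5 stood at 329.5, 377 and 389 CPM in the RT-112 CD44 Low and 677, 717 and 619 CPM in the CD44 High libraries. All 3 CD44 High libraries were above all CD44 Low libraries, a 1.88-fold difference and a log2 fold change of 0.91 ± 0.12 (adjusted p = 0.00049). KRT6A stood at 56.3, 65.2 and 68.9 CPM in CD44 Low and 149.6, 118 and 170.4 CPM in CD44 High. It was 2.36-fold higher in CD44 High, a log2 fold change of 1.24 ± 0.17 (adjusted p = 0.000605), and the groups were again separate. KRT14, the usual filament partner of KRT5, was 7.03, 9.95 and 6.07 CPM in CD44 Low and 4.11, 4.59 and 8.68 CPM in CD44 High, with overlapping groups and a log2 fold change of -0.36 ± 0.37 (adjusted p = 0.555); its 70 to 221 counts per library in these groups limit what could be detected.

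Of the 10 keratins, KRT20 showed the largest fold change in this comparison. It stood at 12.5, 24.1 and 21.3 CPM in the RT-112 CD44 Low and 1.94, 1.26 and 5.34 CPM in the CD44 High libraries, from 291 to 535 and from 22 to 115 counts. CD44 High replicate 3 was the highest of its group and still below every CD44 Low library. It was 6.44-fold lower in CD44 High, a log2 fold change of -2.69 ± 0.52 (adjusted p = 0.00502). Without CD44 High replicate 3 that log2 fold change was -3.56 (adjusted p = 0.00111). KRT13 stood at 5390.0, 5305 and 4807 CPM in CD44 Low and 3046, 3348 and 3388 CPM in CD44 High, with a log2 fold change of -0.63 ± 0.06 (adjusted p = 0.000122). The highest CD44 High library was well below the lowest CD44 Low library.

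The remaining RT-112 keratins had smaller fold changes. KRT17 was 3058, 3074 and 2389.8 CPM in CD44 Low and 1449, 2209.7 and 1668 CPM in CD44 High, a log2 fold change of -0.65 ± 0.13 (adjusted p = 0.00525). CD44 Low replicate 3 and CD44 High replicate 2 came closest to each other without crossing. KRT19 was 3654, 3737 and 2778 CPM in CD44 Low and 1946, 2168 and 2277 CPM in CD44 High, a log2 fold change of -0.64 ± 0.10 (adjusted p = 0.00134). KRT8 was 3208, 3202 and 2526 CPM in CD44 Low and 1961, 2166 and 2205 CPM in CD44 High, a log2 fold change of -0.46 ± 0.09 (adjusted p = 0.00407). For KRT19 and KRT8, as for KRT17, CD44 Low replicate 3 was the lowest of its group. KRT7 gave -0.25 ± 0.07 (adjusted p = 0.0281) and KRT18 gave -0.17 ± 0.08 (adjusted p = 0.145). The KRT7 call did not hold without CD44 Low replicate 1 (adjusted p = 0.0701), CD44 Low replicate 2 (0.0937) or CD44 High replicate 1 (0.0976), nor in a fit of only the groups compared (0.0654). KRT18 passed without CD44 Low replicate 3 (0.0304).

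**Figure D3:**
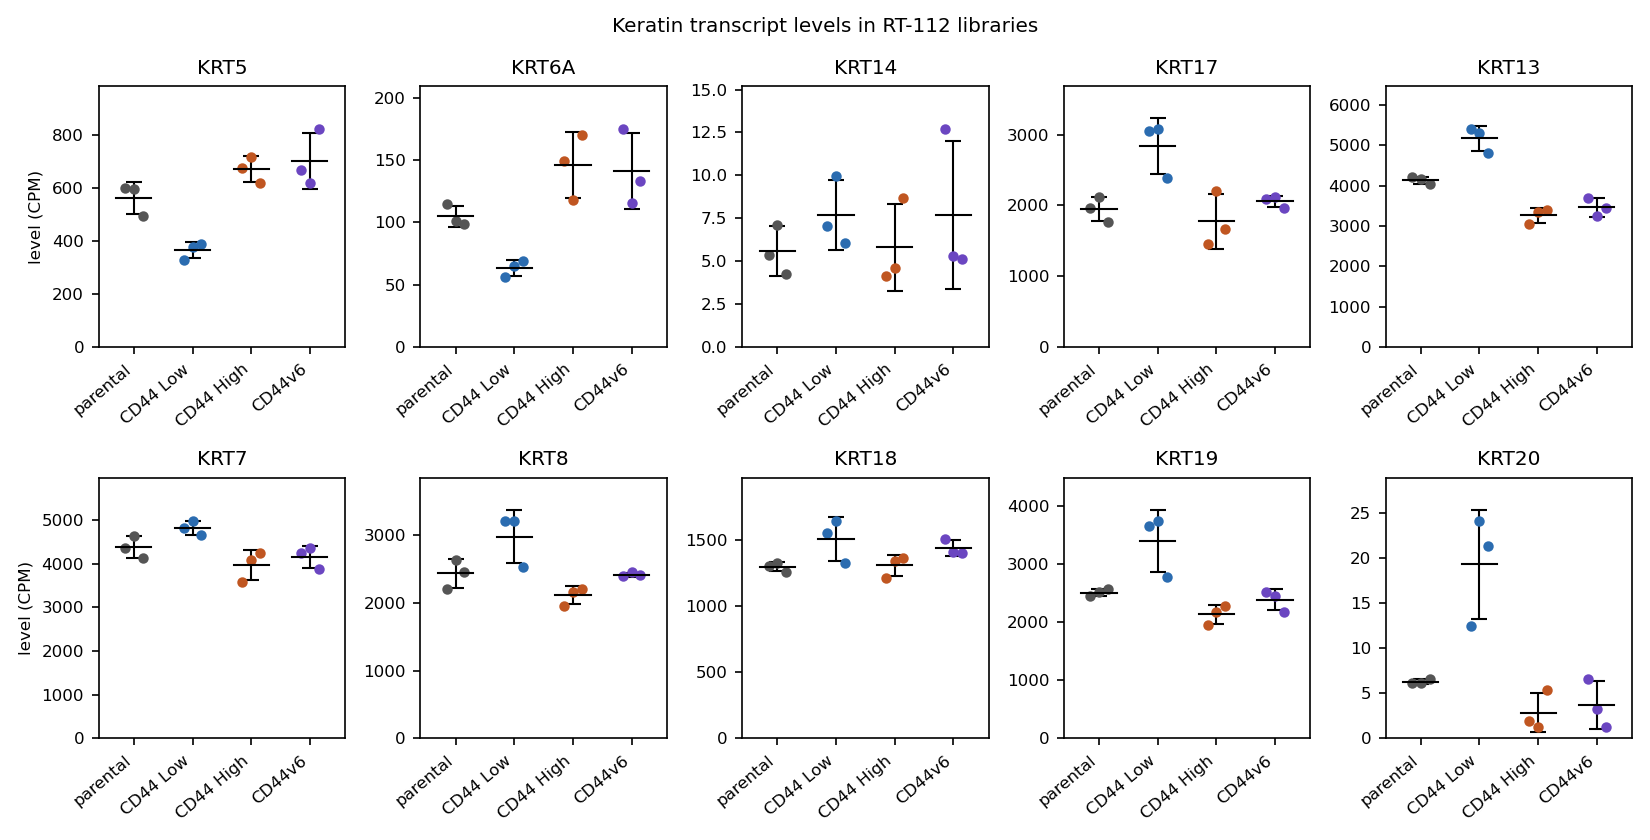
Points are single RT-112 libraries (level in CPM on a linear vertical axis from 0; 4 groups on the horizontal axis), with the mean as a bar and the SD as whiskers (n = 3). KRT5 and KRT6A are lowest, and KRT13, KRT17, KRT19 and KRT20 highest, in the CD44 Low libraries, while KRT14 overlaps between all groups.

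The CD44v6 line of RT-112 repeated the same 2 higher and 6 lower calls against CD44 Low, where 16% of all genes were called (7.97% higher and 8.03% lower); the 2 comparisons share the CD44 Low libraries. KRT5 was 668, 618 and 820.0 CPM in CD44v6, a log2 fold change of 0.94 ± 0.12 (adjusted p = 0.000434), and KRT6A gave 1.15 ± 0.17 (adjusted p = 0.00111). KRT13 was 3693, 3241 and 3437 CPM, a log2 fold change of -0.59 ± 0.06 (adjusted p = 0.000175), and KRT19 gave -0.51 ± 0.10 (adjusted p = 0.00486). KRT20 was 6.56, 3.28 and 1.23 CPM, a log2 fold change of -2.37 ± 0.51 (adjusted p = 0.00963), or -3.09 without CD44v6 replicate 1 (adjusted p = 0.0068). That replicate, the highest of its group in KRT20, was also the one with the highest KRT14 (12.7, 5.30 and 5.11 CPM). KRT17 (-0.47 ± 0.13, adjusted p = 0.0262), KRT8 (-0.31 ± 0.09, adjusted p = 0.0305) and KRT7 (-0.22 ± 0.07, adjusted p = 0.0453) were also called. Leaving out any 1 of the 6 libraries gave a KRT7 adjusted p of 0.0569 to 0.195. KRT17 kept its call only without CD44 Low replicate 3, with 0.0141 to 0.106 over the 6 fits, and KRT8 likewise, with 0.0047 to 0.119. Without the filter on low counts, KRT7 was not called either (0.0623). The median log2 fold change over the 10 was -0.26 against 0.00 over all genes, and CD44v6 and CD44 Low did not overlap for 8 of the 10, against 37.1% of all genes.

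Between CD44v6 and CD44 High in RT-112, no keratin was called by edgeR or DESeq2 and 0 had an unadjusted p under 0.05. Of all genes 0% were called by edgeR, with 665 at an unadjusted p under 0.05, and DESeq2 called 2. Without CD44 High replicate 2 edgeR called 431 of all genes and again 0 keratins. The groups did not overlap for 2 keratins, KRT8 (0.16 on the log2 scale) and KRT18 (0.10), against 7.54% of all genes.

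Against RT-112 parental cells, 5 keratins differed in the CD44 Low line. KRT5 changed in CD44 Low by -0.66 ± 0.12 (adjusted p = 0.0106) on the log2 scale and KRT6A by -0.76 ± 0.17 (adjusted p = 0.0267). KRT13 rose by 0.29 ± 0.06 (adjusted p = 0.0305), KRT19 (2444, 2514 and 2563 CPM in parental cells) by 0.40 ± 0.10 (adjusted p = 0.0431) and KRT17 (1960.5, 2119 and 1770.1 CPM) by 0.51 ± 0.13 (adjusted p = 0.0496). These were 5 of 10 keratins, 3 higher and 2 lower, against 3.2% of all genes (1.33% higher and 1.87% lower), and 7 of 10 did not overlap, against 27.2%. KRT20 was 2.99-fold higher in CD44 Low and did not overlap with parental cells, but missed the threshold at 1.58 ± 0.49 (adjusted p = 0.105). KRT5 lost its call without parental replicate 1, parental replicate 2 or CD44 Low replicate 1 (adjusted p up to 0.0684). KRT6A, KRT13, KRT17 and KRT19 kept theirs only without CD44 Low replicate 3. Without any 1 of the other 5 libraries, their adjusted p reached 0.141, 0.138, 0.197 and 0.189, each without CD44 Low replicate 1. KRT17 was also not called with median-of-ratios scaling (0.0516) or without the filter on low counts (0.0666), nor was KRT19 without the filter (0.0633).

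The RT-112 CD44 High line differed from parental cells in KRT13 alone among the 10, by -0.34 ± 0.06 (adjusted p = 0.0385) on the log2 scale, where 0.511% of all genes were called, 0.262% lower. That call held only without CD44 High replicate 3 among the 6 fits that left out a library (0.0318 to 0.18), and not in a fit of only the groups compared (0.112). KRT5 (0.25), KRT6A (0.48), KRT8 (-0.21), KRT19 (-0.24) and KRT20 (-1.11) did not overlap with parental cells but were not called, and with KRT13 they made 6 of 10 against 16.9% of all genes. CD44v6 against parental cells gave 0 calls by edgeR (3 at an unadjusted p under 0.05, against 0.614% of all genes called) and 1 by DESeq2, with KRT13 at -0.30 ± 0.06 (adjusted p = 0.0585). The groups did not overlap for 4 of the 10 keratins, against 26.9% of all genes.

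From CD44 Low to CD44 High, the fold changes of all 5 keratins tested in both lines differed between J82 and RT-112. The test was the interaction contrast over all 24 libraries, the J82 change minus the RT-112 change. KRT7 gave log2 fold changes of 1.44 in J82 and -0.25 in RT-112, a difference of 1.71 ± 0.17 (adjusted p = 1.51e-06). KRT19 gave 0.27 and -0.64, a difference of 0.93 ± 0.16 (adjusted p = 0.0005). KRT8 gave 0.19 and -0.46, a difference of 0.68 ± 0.13 (adjusted p = 0.00206), and KRT18 gave 0.25 and -0.17, a difference of 0.45 ± 0.12 (adjusted p = 0.0207). For these 4 keratins the fold changes had opposite signs in the 2 lines, although in J82 KRT8, KRT18 and KRT19 were not called by themselves, nor was KRT18 in RT-112. KRT17 was lower in CD44 High in both lines, and more so in J82, by -0.77 ± 0.22 (adjusted p = 0.0248). All 5 keratins tested were called, 4 with a positive and 1 with a negative difference, where 10.7% of all genes were called (6.24% and 4.42%); KRT5, KRT6A, KRT13, KRT14 and KRT20 had under 10 counts in every J82 library and were not tested.

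The KRT17 line difference was not called without J82 CD44 Low replicate 3 (0.0612), J82 CD44 High replicate 1 (0.0818) or 2 (0.0635), RT-112 CD44 Low replicate 3 (0.0636) or RT-112 CD44 High replicate 2 (0.0766), nor without the filter on low counts (0.0538) or in a fit of only the groups compared (0.0684), all adjusted p-values. The KRT18 difference was not called without RT-112 CD44 High replicate 1 (0.0639) or in a fit of only the groups compared (0.0566). For CD44v6 against CD44 Low, 4 of the 5 keratins differed between the lines, where 7.52% of all genes did (4.56% positive and 2.96% negative): KRT7 by 1.42, KRT19 by 0.68, KRT8 by 0.46 and KRT17 by -0.85. KRT8 lost this call without RT-112 CD44 Low replicate 1 or any 1 of the 3 RT-112 CD44v6 libraries (adjusted p up to 0.0833) or in a fit of only the groups compared (0.0664), and KRT17 without J82 CD44 Low replicate 3 (0.0573) or J82 CD44v6 replicate 1 (0.0586). For CD44v6 against parental cells, 0 of 5 keratins differed between the lines by edgeR or DESeq2 (1 at an unadjusted p under 0.05, against 0.138% of all genes called).

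**Figure D4:**
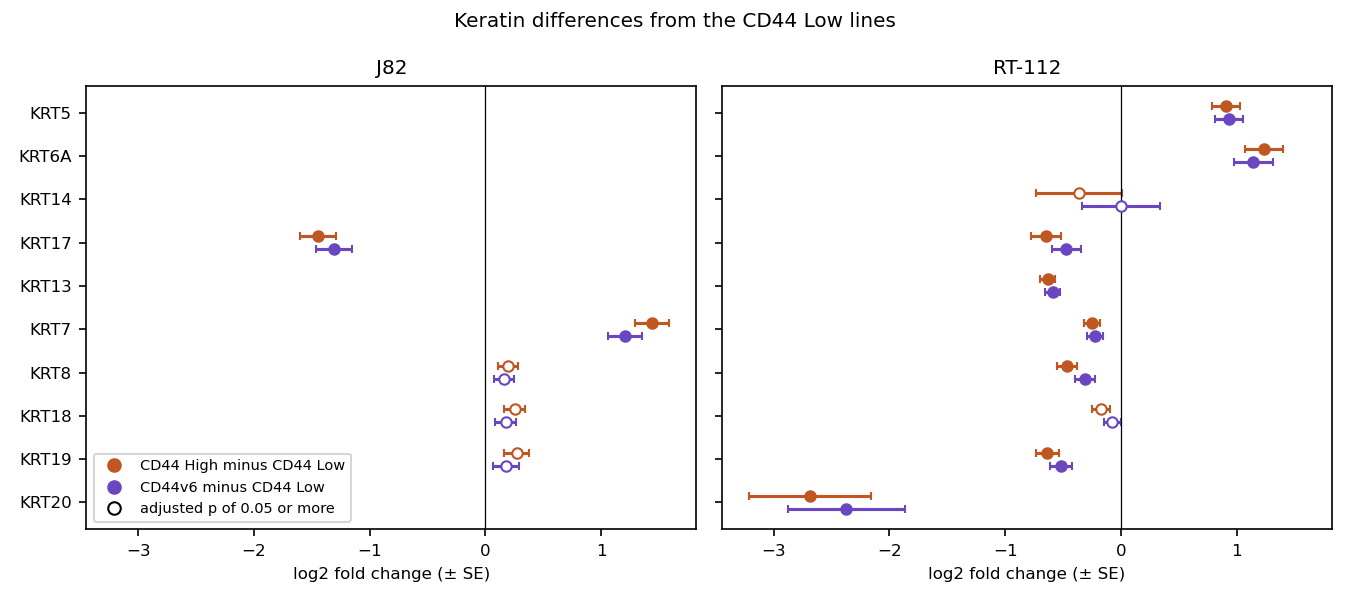
Points are log2 fold changes from CD44 Low (horizontal axis, whiskers ± SE) for each keratin (vertical axis) in J82 and RT-112, with open points at an adjusted p of 0.05 or more. KRT7 lies at 1.44 in J82 and -0.25 in RT-112 for CD44 High against CD44 Low, KRT20 is lowest in RT-112 at -2.69, and keratins with no or too few counts in J82 are not drawn there.

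Ratios within a library do not depend on its scaling. In RT-112 the log2 ratio of KRT5 to KRT20 counts was 4.29 ± 0.39 in CD44 Low, 6.48 ± 0.23 in parental, 8.15 ± 1.17 in CD44 High and 7.87 ± 1.38 in CD44v6 libraries (mean ± SD, n = 3). The 3 CD44 Low libraries lay below all 9 others, and the spread was widest in CD44 High and CD44v6, where KRT20 had the fewest counts. The ratio of KRT5 to KRT13 was tighter, at -3.82 ± 0.20 in CD44 Low and -2.28 ± 0.15 in CD44 High. In J82 the ratio of KRT7 to KRT17 was 2.94 ± 0.24 in CD44 Low, 4.79 ± 0.16 in parental, 5.85 ± 0.50 in CD44 High and 5.48 ± 0.33 in CD44v6 libraries. The filament partners KRT8 and KRT18 gave a ratio in J82 of 1.43 ± 0.03 in CD44 Low and 1.37 ± 0.03 in CD44 High. In RT-112 it was 0.98 ± 0.06 and 0.69 ± 0.00. CD44 Low and CD44 High did not overlap in this ratio in either line. In J82 the gap was narrow (lowest CD44 Low library 1.414, highest CD44 High library 1.403), and parental libraries ranged from 1.379 to 1.484. How often ratios of other genes separated these groups was not computed.

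**Figure D5:**
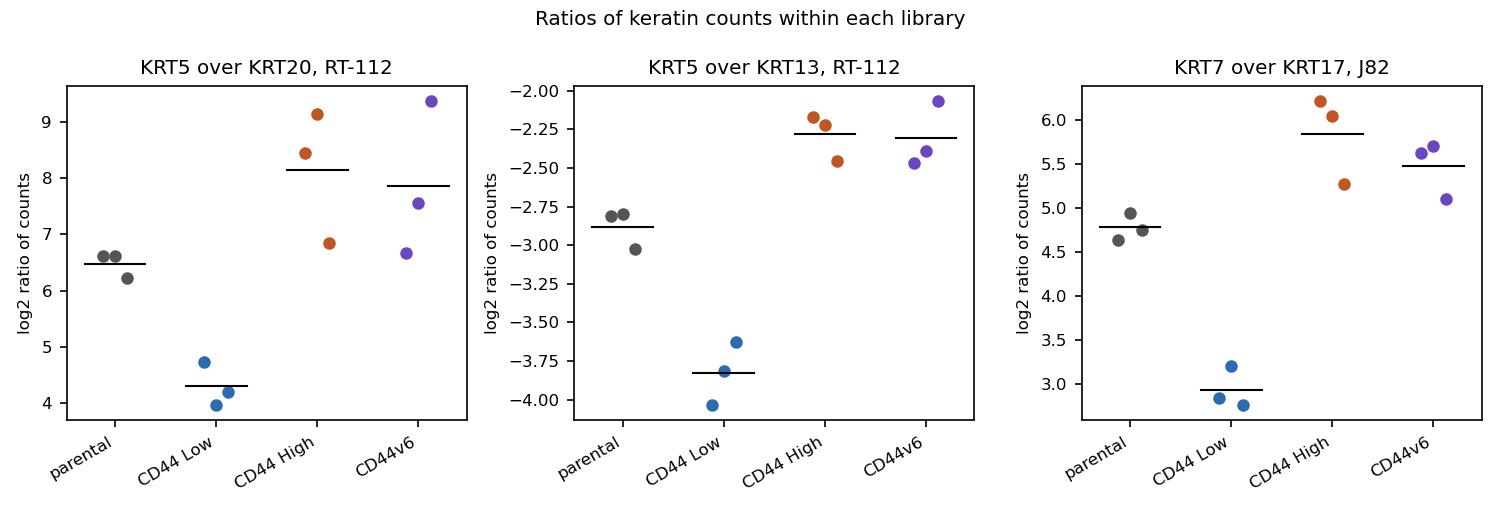
Points are log2 ratios of counts of 2 keratins within single libraries (vertical axis) by group (horizontal axis), with the group mean as a bar (n = 3). CD44 Low libraries have the lowest KRT5 to KRT20 and KRT5 to KRT13 ratios in RT-112 and the lowest KRT7 to KRT17 ratio in J82.

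The summed counts of the 10 keratins, which leave out other keratins such as KRT4, also differed in opposite directions in the 2 lines. Together the 10 keratins took 0.723 ± 0.0624% of counts in J82 CD44 Low and 0.995 ± 0.087% in J82 CD44 High libraries, but 2.07 ± 0.163% in CD44 Low and 1.53 ± 0.107% in CD44 High libraries of RT-112 (mean ± SD, n = 3). In neither line did the CD44 Low and CD44 High libraries overlap. The summed level per transcript length of the type I members over that of the type II members was 0.498 ± 0.0107 in J82 CD44 Low and 0.377 ± 0.0123 in J82 CD44 High, and 1.89 ± 0.103 and 1.50 ± 0.0525 in RT-112. The ratio was higher in CD44 Low than in CD44 High in both lines. These sums were not tested.

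Beyond the 10, a list of 22 other keratins gave 18 tested in RT-112, with 2 higher and 5 lower in CD44 High, and 5 tested in J82, with 2 higher and 0 lower. For this and the lists that follow, the shares of all genes called between the same groups were 16% in RT-112 (9.01% higher and 7.02% lower) and 15.7% in J82 (8.83% higher and 6.9% lower). The list's median log2 fold change was 0.01 in RT-112 and -0.23 in J82, against 0.02 and -0.02 over all genes. KRT4, the type II partner of KRT13 in stratified mucosa, fell in RT-112 as KRT13 did, from 776 ± 112 CPM to 262 ± 31.0 CPM, a log2 fold change of -1.54 ± 0.14 (adjusted p = 6.35e-05). KRT16, the usual type I partner of KRT6A, fell by contrast with it, with -1.11 ± 0.14 (adjusted p = 0.000468). KRT1 (-2.60) and KRT77 (-1.66) were also lower. KRT80 was higher in both lines, by 0.75 ± 0.18 (adjusted p = 0.0134) in J82 and 0.39 ± 0.12 (adjusted p = 0.0451) in RT-112. The RT-112 KRT80 call held with DESeq2 and without CD44 High replicate 3 and under none of the other settings tried (adjusted p up to 0.166), and in J82 it was lost without CD44 High replicate 2 (0.0536). KRT81 in J82 rose from 0.349 ± 0.327 CPM to 2.02 ± 0.852 CPM, a call lost without CD44 Low replicate 3, CD44 High replicate 1 or CD44 High replicate 2 (adjusted p up to 0.0886).

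Keratin filaments end at desmosomes between cells and at hemidesmosomes on the basement membrane. Of 10 desmosome genes in RT-112, 3 were higher and 0 lower in CD44 High: the cadherin DSC2 (0.92 ± 0.13, adjusted p = 0.00108), the p63 target PERP (0.49 ± 0.09, adjusted p = 0.00415) and the cadherin DSC3 (0.43 ± 0.12, adjusted p = 0.0242). DSC3 was not called without CD44 Low replicate 1 or 2 or CD44 High replicate 1 or 3 (adjusted p up to 0.119). These 3 of 10 stand against 9.01% of all genes higher. In J82, of 9 desmosome genes tested, where 6.9% of all genes were lower, the plakophilin PKP2 fell (-0.60 ± 0.09, adjusted p = 0.000583) and none rose. Of 9 hemidesmosome genes, 4 were higher and 0 lower in RT-112, against 9.01% and 7.02% of all genes, among them the integrin subunits ITGA6 (1.03) and ITGB4 (0.91) and the laminin chain LAMA3 (0.63). In J82, 4 were higher and 1 lower, against 8.83% and 6.9% of all genes. ITGA6 rose by 1.10 ± 0.09 (adjusted p = 4.58e-06), while ITGB4 fell by contrast with RT-112 (-1.35 ± 0.31, adjusted p = 0.011), a call lost without CD44 Low replicate 1 (0.057). COL17A1, the collagen of the hemidesmosome, stood at 0.0763 ± 0.132 CPM in J82 CD44 Low, near the floor, and 1.79 ± 0.893 CPM in CD44 High. The median log2 fold changes were 0.18 and 0.16 for the desmosome and hemidesmosome lists in RT-112 and 0.09 and 0.35 in J82.

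Of 10 genes for other intermediate filament proteins, 7 were tested in each line and 1 was called in each, a share near the 16% of all genes called in RT-112 and 15.7% in J82, with median log2 fold changes of 0.24 in J82 and 0.14 in RT-112. VIM, the filament of mesenchymal cells, rose in J82 from 231 ± 18.0 CPM in CD44 Low to 606 ± 17.9 CPM in CD44 High, a log2 fold change of 1.40 ± 0.08 (adjusted p = 2.89e-07). The 14 fibroblast and mesenchymal markers, VIM among them, summed to 2147 to 2608 CPM in J82 CD44 Low (12 of 14 over 1 CPM) and 1804 to 1992 CPM in CD44 High (11 of 14), with DCN and FAP at 0. The J82 sum was lower mainly through COL3A1 (means 1106 CPM in CD44 Low and 411 CPM in CD44 High). ZEB2, FN1, COL1A1, COL1A2, PDGFRB, LUM and TWIST1 also had lower means. VIM, ZEB1 (54.8 and 70.1 CPM), CDH2 (280 and 328 CPM) and SPARC (3.68 and 5.19 CPM) had higher means. In RT-112 the lamin LMNB2 rose (0.39 ± 0.08, adjusted p = 0.00708), a call not made in the fit of only the groups compared (0.0586), and the mesenchymal sum was 438 to 479 CPM in CD44 Low and 538 to 952 CPM in CD44 High (4 of 14 over 1 CPM in both), with COL1A2, SPARC, PDGFRB, DCN and TWIST1 at 0. That sum was higher through FN1 (mean 214 CPM in CD44 Low and 534 CPM in CD44 High), while LUM (232 and 141), VIM (1.52 and 0.81) and ZEB1 (1.41 and 0.629) had lower means. Its part in the keratin differences was not tested. The leukocyte gene CD3E reached 0.159 CPM at most, while 5 leukocyte markers summed to 76.9 to 216 CPM in J82, nearly all of it CD68, and to 6.93 to 13.7 CPM in RT-112. The 4 endothelial markers summed to at most 5.57 CPM.

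Transcription factors tied to keratin genes gave 3 higher and 3 lower of 17 tested in RT-112, and 3 higher and 1 lower of 10 tested in J82. All genes gave 9.01% higher and 7.02% lower in RT-112 and 8.83% and 6.9% in J82. TP63, the master factor of basal epithelium, rose in RT-112 CD44 High from 88.4 ± 14.0 CPM to 141 ± 5.23 CPM (0.70 ± 0.10, adjusted p = 0.0012). TFAP2A, an AP-2 factor, rose by 0.93 ± 0.18 (adjusted p = 0.00448). The AP-1 subunit FOSL1 was higher in both lines, by 1.50 ± 0.20 (adjusted p = 0.000537) in RT-112 and 0.95 ± 0.30 (adjusted p = 0.0466) in J82, where the groups overlapped. The FOSL1 call in J82 was lost without CD44 Low replicate 1 or 2 or CD44 High replicate 2 or 3 (adjusted p up to 0.176). In J82 the luminal factors PPARG (1.18 ± 0.11, adjusted p = 1.72e-05) and FOXA1 (1.24 ± 0.33, adjusted p = 0.0233) rose, the latter from 2.16 ± 0.757 CPM and not without CD44 Low replicate 1 or 2 or CD44 High replicate 1 or 2 (adjusted p up to 0.0926). NFE2L2 was lower in both lines (-0.38 in J82 and -0.39 in RT-112). In RT-112 that call was lost without CD44 Low replicate 1 or 2 or CD44 High replicate 1 or 2 (adjusted p up to 0.0911). The list's median log2 fold change was -0.10 in RT-112 and -0.01 in J82.

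Of 12 squamous differentiation genes tested in RT-112, 7 fell in CD44 High and 0 rose, where 7.02% of all genes fell and 9.01% rose, with a median log2 fold change of -0.97 against 0.02 over all genes. SERPINB3, a squamous-cell serpin, fell from 16.3 ± 2.50 CPM to 2.57 ± 0.874 CPM (-2.61 ± 0.27, adjusted p = 0.000122), and S100A8 from 10.8 ± 4.56 CPM to 2.65 ± 0.545 CPM (-1.98 ± 0.34, adjusted p = 0.00252). S100A7 stood at 1.47 ± 0.146 CPM in CD44 Low and 0.0464 ± 0.0804 CPM in CD44 High, and SERPINB4 at 1.18 ± 0.339 CPM and 0.183 ± 0.186 CPM, both low. At these levels neither gene passed the filter on low counts through the CD44 High libraries, and both are among the 7. The SERPINB4 call was lost without CD44 Low replicate 2 or 3 or CD44 High replicate 1 (adjusted p up to 0.0837). KRT6A, a keratin of squamous epithelium, rose between the same libraries. In J82 only 2 of the 15 squamous genes were tested and 0 were called by edgeR.

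Of 12 genes for keratin organisation and turnover, 4 were higher and 0 lower in RT-112 CD44 High, against 9.01% and 7.02% of all genes: FBF1 (0.78 on the log2 scale), EVPL (0.50), FAM83H (0.35) and TRIM29 (0.31). FAM83H lost its call when any of 3 of the 6 libraries was left out, EVPL any of 4, and FBF1 and TRIM29 any of 5, with adjusted p up to 0.0849, 0.124, 0.139 and 0.142. In J82 periplakin, PPL (-0.90 ± 0.22, adjusted p = 0.0157), and TRIM29 (-1.21 ± 0.35, adjusted p = 0.0327) fell, where 6.9% of all genes fell. TRIM29 lost its call whichever of the 6 J82 libraries was left out (adjusted p up to 0.103), and PPL lost its call without CD44 Low replicate 1 or CD44 High replicate 1 (up to 0.0673). The list's median log2 fold change was 0.13 in RT-112 and -0.02 in J82.

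Genes whose levels over a line's 12 libraries most resembled each keratin were named by Pearson's r of log2 CPM, as a description over libraries that share the group differences. In J82 these were CHN1 (r = 0.985) and COTL1 for KRT7, LIMCH1 (0.965) and CDKN2B for KRT17, and GLIPR1 (0.938) and CAPN2 for KRT19. In RT-112 they were TUBB (0.977) and MTOR for KRT5, NT5E (0.969) and H19 for KRT6A, HPGD (0.973) and SPTSSB for KRT13, and TCIM (0.964) and LIMCH1 for KRT20. For KRT17, KRT7, KRT8 and KRT19 in RT-112 they were MARCKSL1 and PDXDC1, PLIN4 and IVL, H2AJ and ZFYVE21, and CTSL and CD63. LIMCH1 was thus named for KRT17 in J82 and for KRT20 in RT-112.

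Several keratins share sequence with other genes, which the counting could have divided. In GENCODE 29, KRT6A shared 18.2% of its windows of 100 bases with other genes (KRT6C the closest), KRT18 16.6% (an overlapping KRT8 transcript), KRT13 14.8%, KRT8 7.75% and KRT7 7.67% (its antisense KRT7-AS), and KRT19 and KRT20 shared none. The table also held 49 pseudogene rows of KRT8 and 66 of KRT18, which took 4.79% and 2.4% of the summed counts in J82, and KRT6B and KRT6C took 12.3% of the sum with KRT6A in RT-112. Adding these rows to the members changed no call of the 10. Because the use of strand in counting is not given in the sources used here, reads of KRT7 and KRT7-AS cannot be told apart. KRT18 and KRT8 also lie on opposite strands, so the same limit holds for reads in the windows they share.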

How the data were processed

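RNA-seq gene counts of 24 libraries were used, from 2 cell lines with 4 groups each and 3 biological replicates per group. The authors deposited whole-number counts per gene symbol, not normalised. The submitters' processing notes name GRCh37, HISAT2 and StringTie; versions, annotation and use of strand are not given in the sources used here. Totals were 16752825 to 24419670 counts per library, and replicates differed by more than sampling noise in all 24 pairs within groups (chi-square per degree of freedom 6.42 to 63.7).

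Each line's 12 libraries were fitted with edgeR 4.0.16 in R 4.3.3 (TMM scaling, filterByExpr by group, quasi-likelihood F-test, two-sided), giving 15951 genes tested in J82 and 15645 in RT-112. All 24 libraries (17438 genes) gave the comparison of the parental lines and the contrasts between lines. P-values were Benjamini-Hochberg adjusted over all tested genes, with a call at an adjusted p under 0.05. A count of 0 was read as up to 3 counts per library, which covers counting error only. Levels are CPM on TMM-scaled totals, and levels between genes were divided by transcript length (GENCODE 29). The fits were tested on simulated data.

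The 10 keratins, the gene lists and the markers were chosen with earlier results of these data known. From each list the text names up to 4 called genes per line with the largest change between CD44 High and CD44 Low, and those called in J82 and RT-112 alike with 1 sign, except for items not reported here; likeness names 2 genes per called keratin whose mean log2 CPM was at least 3. The labels give replicate numbers but no shared batch; same-numbered libraries deviated together in every pair (correlation over 0.1) in 1 of 12 comparisons, J82 CD44 High against CD44 Low (0.20, 0.28 and 0.30). The alternatives were DESeq2 1.42.0, median-of-ratios scaling, no filter, only the groups compared, a replicate block, leaving out each library, summing near copies, the longest transcript and Spearman's rho.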

Additional observations from a re-analysis of the deposited data

Results flagged for a closer look

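The change from CD44 Low to CD44 High differed between J82 and RT-112 for each of the 5 keratins tested in both lines. On the log2 scale, as the J82 change minus the RT-112 change, the difference was 1.71 for KRT7, 0.93 for KRT19, 0.68 for KRT8, 0.45 for KRT18 and -0.77 for KRT17. From CD44 Low to CD44v6 it was 1.42 for KRT7, 0.68 for KRT19, 0.46 for KRT8 and -0.85 for KRT17. Each of these 9 passed the interaction test (edgeR, adjusted p under 0.05), and both sets use the same CD44 Low libraries. In some of the alternative fits given above, KRT17 and KRT18 lost the call for CD44 High, and KRT8 and KRT17 lost it for CD44v6. KRT17 was lower than in CD44 Low in both lines, while KRT7 was higher in J82 and lower in RT-112. For CD44 itself the line difference from CD44 Low to CD44 High was -0.20, which missed the threshold (adjusted p = 0.692).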

How the results depend on the processing

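Leaving out each library in turn moved the number of keratins called in CD44 Low against parental cells of RT-112 from 5 to between 0 and 6, in CD44 High against parental cells of RT-112 from 1 to between 0 and 1, and in CD44v6 against CD44 Low of RT-112 from 8 to between 5 and 7. In J82, CD44 High against parental cells and CD44v6 against parental cells went from 0 keratins to between 0 and 1. The other keratin counts stayed within 1.5 times when a library was left out: 2 to 3 for J82 CD44 High against CD44 Low, 7 to 9 for the same pair in RT-112 and 4 to 5 for its line difference. With DESeq2, keratins called rose from 0 to 2 in J82 CD44 High against parental cells and from 0 to 1 in CD44v6 against parental cells of RT-112. A fit of only the groups compared gave the same 2 and 1, lowered RT-112 CD44 High against parental cells from 1 to 0, and lowered the line difference in CD44 High against CD44 Low from 5 to 3. Without the filter on low counts, RT-112 CD44 Low against parental cells had 3 keratins called. The cause was not tested.

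With the replicate block, 2 keratins were called in J82 CD44 High against parental cells. The block gave 3 in RT-112 CD44 Low against parental cells and 0 in RT-112 CD44 High against parental cells. In these comparisons same-numbered libraries did not all deviate together. In J82 CD44 High against CD44 Low, where they did (correlation over 0.1), the block added KRT19 and changed no other keratin call. Whether the numbers pair these libraries is not given by the labels. Single keratins were followed in 49 results, the 44 that were called and had a fitted fold change and 5 uncalled ones of CD44 High against CD44 Low; the other uncalled results, those against parental cells above included, are not among them. Of these 49, DESeq2 and summed near copies left 49 on the same side of the threshold, median-of-ratios scaling 48, no filter 45, the block 44, only the groups compared 43 and leaving out any 1 library 32. None changed direction.

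The number of all genes called moved more. With DESeq2 and with only the groups compared it went from 852 to 1488 and 1501 in J82 CD44 Low against parental cells, from 469 to 910 and 1350 in J82 CD44 High against parental, and from 500 to 985 and 1126 in RT-112 CD44 Low against parental. For all genes in CD44v6 against parental it went from 415 to 1061 and 148 in J82 (253 with no filter) and from 96 to 587 and 953 in RT-112 (60 with no filter, 58 with the block). In RT-112 CD44 High against parental it went from 80 to 292 and 43, and the block gave 303 in CD44 Low against parental. Only the groups compared gave 636 in place of 1528 in J82 CD44v6 against CD44 Low and 1171 in place of 2507 for CD44 High against CD44 Low of RT-112. In CD44v6 against CD44 High, 0 became 74 with DESeq2 and 1 with only the groups compared in J82, and 2 with DESeq2 in RT-112. The line difference in CD44v6 against CD44 Low went from 1312 to 2095 with DESeq2, and that in CD44v6 against parental from 24 to 463 and 335, with 12 higher and 12 lower becoming 22 and 9 under median-of-ratios scaling. Leaving out 1 library gave a lowest count of all genes of 312 in J82 CD44 Low against parental, 122 in CD44 High against parental, 1578 in CD44 High against CD44 Low, and 32 to 1120 in CD44v6 against parental. In RT-112 it gave 142 to 798 in CD44 Low against parental, 18 to 196 in CD44 High against parental, 25 to 55 in CD44v6 against parental, 1230 at the lowest in CD44 High against CD44 Low, 1004 at the lowest in CD44v6 against CD44 Low and up to 431 in CD44v6 against CD44 High. For all genes the line differences fell to 1229 and 766, or ranged from 3 to 217 for CD44v6 against parental.

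Named by Spearman's rho in place of Pearson's r, the 2 genes most like KRT19 in J82 were the same, as was 1 of 2 for KRT5, KRT13, KRT7 and KRT8 in RT-112 and 0 of 2 for the other keratins. Depth limits KRT14 and KRT20: KRT14 had 0 to 9 counts per library in J82, and KRT20 22 to 535 in RT-112.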
